A study of Mus musculus with 2 samples.

Results

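Lpp (gene ID 210126 in RefSeq) encodes a LIM domain protein of the zyxin family. It is described here across the 1 Mb of mouse chromosome 16 that holds it, from 24000001 to 25000000 on the mm8 build, the build of all coordinates below unless another is named. The members are the 2000 windows of 500 bp in that stretch, of which 1959 held a read in at least 1 library, out of 4308660 such windows in the genome. Chromatin immunoprecipitation and sequencing (ChIP-seq) mapped RNA polymerase II (Pol II), which copies protein-coding genes into RNA, along the DNA of mouse embryonic fibroblasts (matrix-forming cells grown from embryos) kept in medium with 10% serum. Both samples were made with the antibody 8WG16, which binds the repeated tail of the largest Pol II subunit, so they form 1 group of 2 libraries. Library 1 was cut from a gel at 150 to 350 bp and library 2 at 150 to 300 bp, and each has its own sequencing run, so effects of sample, run and gel slice cannot be told apart. The labels name no genotype, strain or embryonic age and no separate cultures, so any spread seen between them can be technical. An input or untreated control library was not analysed here, and enrichment is measured against each library's own genome-wide background.

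The stretch was chosen from these reads. Among 1 Mb bins of the genome it had the highest share of tested windows called over background in both libraries, 36.7%, and the next 3 bins, on chromosomes 19, 2 and 10, had 27.5%, 27.1% and 25.3%. The level of Pol II over Lpp is therefore given as a description, with no test. The name Lpp comes with the choice of the stretch. No annotation of mm8 was used here, so exons and introns were not placed, and fibroblast marker genes were not evaluated. In the RefSeq gene table of GRCm38, Lpp lies between the protein-coding genes Bcl6 and Tprg and holds the microRNA gene Mir28a.

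LPP protein sits at focal adhesions, the sites where actin bundles are anchored to the cell membrane and to the matrix outside, and it also shuttles to the nucleus. It is known in fibroblasts and smooth muscle cells for a part in adhesion and migration, and its human gene was found as a fusion partner of HMGA2 in lipomas. On a gene read by Pol II, the polymerase typically gathers near the start, is spread along the body while it elongates, and gathers again near the end before it leaves the DNA. The antibody 8WG16 favours the Pol II tail with little phosphate, the form that is most common near starts.

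RefSeq lists 2 promoters for Lpp on GRCm38.p6, both on the plus strand. They are shown because the Pol II profile below has 1 strong start and a long body in which a second start could lie, and because they differ in base composition. The 250 bases before each start are printed with CpG pairs in capitals. The first is at chr16:24393100-24393349 and the second at chr16:24721605-24721854, both on GRCm38.p6, and neither was placed on mm8.
Lpp promoter 1: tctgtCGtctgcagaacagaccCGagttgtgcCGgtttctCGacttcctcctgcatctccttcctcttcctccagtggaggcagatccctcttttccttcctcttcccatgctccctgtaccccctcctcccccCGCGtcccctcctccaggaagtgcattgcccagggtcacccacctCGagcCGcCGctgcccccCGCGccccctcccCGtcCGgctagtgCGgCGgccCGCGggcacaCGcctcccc
Lpp promoter 2: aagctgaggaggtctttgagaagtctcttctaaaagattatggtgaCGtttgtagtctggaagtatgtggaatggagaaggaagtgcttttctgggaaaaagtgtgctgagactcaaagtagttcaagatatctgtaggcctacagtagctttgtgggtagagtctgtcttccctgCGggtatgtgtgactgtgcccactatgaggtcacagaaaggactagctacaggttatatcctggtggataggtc

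Promoter 1 was 67.6% G or C and held 18 CpG pairs, and promoter 2 was 45.2% G or C and held 2. Of the 32851 promoters in the RefSeq table, 19.7% had more CpG pairs than promoter 1 and 71.0% had more than promoter 2, with a median of 6. Neither window held the TATA box letters TATAAA or the GC box letters GGGCGG on either strand, which 12.4% and 32.7% of all promoters hold. Both held GGAAGT on at least 1 strand, as did 19.7% of all promoters. A match of letters is a description and not a bound site.

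Lpp also hosts miR-28a, a microRNA. Its mature strands are printed from RefSeq with the seed, bases 2 to 8, in capitals, because the hairpin lies within Lpp in the RefSeq table.
mmu-miR-28a-5p: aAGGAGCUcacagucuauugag
mmu-miR-28a-3p: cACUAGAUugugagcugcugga

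Pol II covered Lpp as 1 long domain by the calls used here. Chaining windows called in both libraries across gaps of at most 10 kb gave a domain from 24306001 to 24915000, 609 kb long. In library 1 alone the domain had the same bounds, and in library 2 alone it ran from 24297501 to 24920500, 623 kb. The chain depended on the call: it was 267.5 kb with a negative binomial background, 265 kb in 250 bp windows and 3.5 kb against a local background of 50 kb on each side. A window was called where its count exceeded the library's background by an exact Poisson test (one-sided, Benjamini-Hochberg adjusted over all tested windows of the genome, threshold 0.01), which took at least 12 reads in library 1 and 7 in library 2. Of the 1202 tested windows of the domain, 738 were called in library 1, 1099 in library 2 and 710 in both. These are 61.4%, 91.4% and 59.1%, against 3.41%, 9.02% and 2.9% of the windows of the genome. Since the stretch was chosen for such calls, nothing is read from that contrast. In the rest of the 1 Mb, 8 of 757 tested windows were called in both, 1 before the domain and 7 after it.

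The domain held 16215 reads in library 1 (95% exact Poisson interval 15966 to 16466) and 16773 in library 2 (16520 to 17029), with reads that share a start and strand counted once. All such intervals given here, and the exact tests, allow for counting error only. In reads per 1000000 collapsed nuclear reads of each library (RPM), its mean density was 1.54 RPM per kb in library 1 and 2.55 RPM per kb in library 2. The rest of the 1 Mb had 0.494 and 0.360 RPM per kb, and the genome background was 0.389 and 0.236 RPM per kb. The domain thus stood at 3.95 times the background of library 1 and 10.8 times that of library 2. With repeated starts kept, the domain held 17976 reads in library 1 and 17329 in library 2. These fell evenly on both strands, 50.7% and 49.5% of them on the plus strand. Repeated starts made up 9.80% of the domain's reads in library 1 and 3.21% in library 2.

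**Figure D1:**
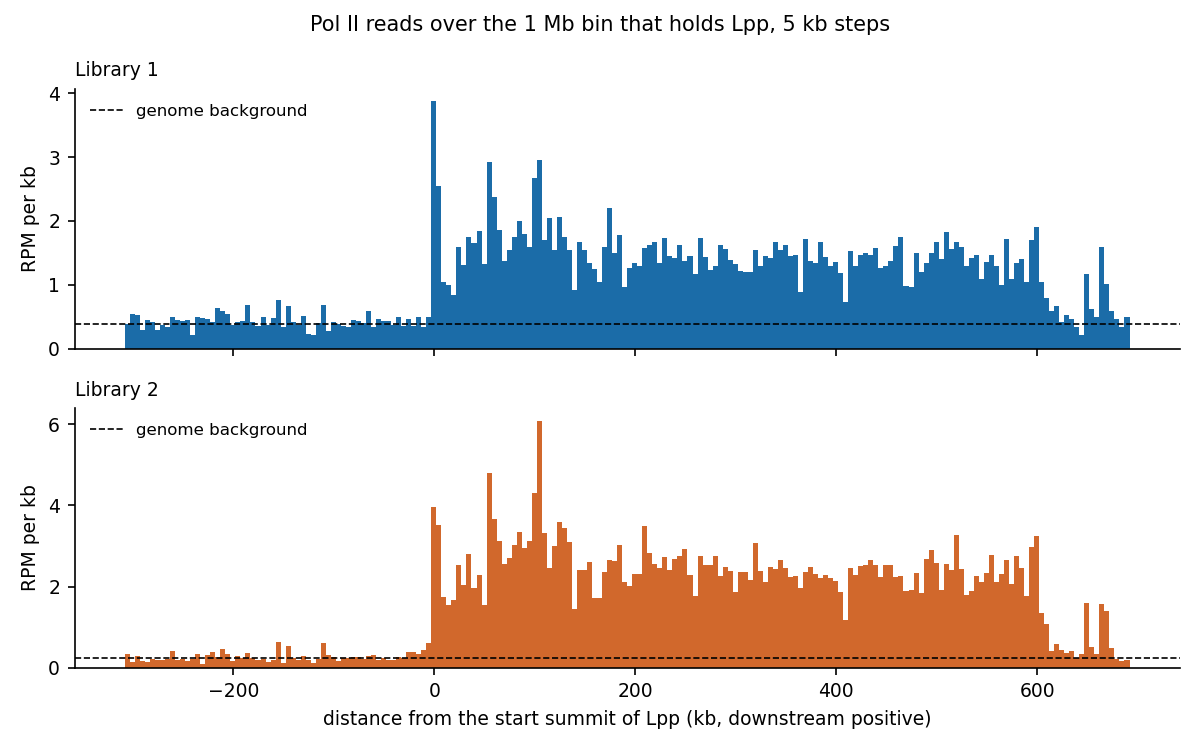
Pol II reads in 5 kb steps (vertical axes, RPM per kb, 1 panel per library) against distance from the start summit of Lpp in kb, with the genome background of each library dashed. Signal lies near background before the start, fills the 609 kb domain, and returns to near background at its end, except for small peaks beyond it.

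The start of the domain was its highest point in 500 bp windows. The summit window, from 24308001 to 24308500, held 89 reads in library 1 and 63 in library 2. These are 5.07 RPM (exact Poisson interval 4.07 to 6.24) and 5.76 RPM (4.42 to 7.37), 26.1-fold and 48.8-fold over background. Both libraries placed their highest window of the domain's start there. It was the low-coordinate end of the domain, where a gene on the plus strand begins. Higher windows occurred elsewhere: 2677 windows called in both libraries had more RPM in library 1 and 6513 in library 2, 2.15% and 5.22% of all of them.

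Pol II at the start formed a pair of peaks. After the summit window the counts were lower, 56 and 38 reads in the next 2 windows of library 1 and 20 and 13 in those of library 2. A second hump followed from 24309501 to 24311000, with 66, 50 and 49 reads per window in library 1 and 51, 47 and 37 in library 2. Summed over 1.5 kb, the first hump (24307501 to 24309000) had 10.1 RPM and the second 9.40 RPM in library 1, and 9.51 and 12.3 RPM in library 2. In reads these are 177 and 165 in library 1 and 104 and 135 in library 2. The order of the humps thus differed between the libraries, by a small margin in library 1, and was not tested. The dip between them was present in both. Both humps passed a test against their surroundings in both libraries, described below for internal peaks. Over the summit window the count was 7.17 times its surroundings in library 1 and 5.88 times in library 2. Over the highest window of the second hump it was 5.35 and 4.88 times.

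Reads lay mostly downstream of the summit. From 1 to 5 kb on the right there were 252 reads in library 1 and 210 in library 2, against 48 and 59 on the left. The right side includes the second hump. On the left, counts passed the call in both libraries as far as 2 kb before the summit window, at 15 and 8 reads. In the 50 kb before the domain, density was 0.452 RPM per kb in library 1 and 0.362 in library 2, 1.16-fold and 1.53-fold over background. No window there was called in library 1, and 3 were in library 2.

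**Figure D2:**
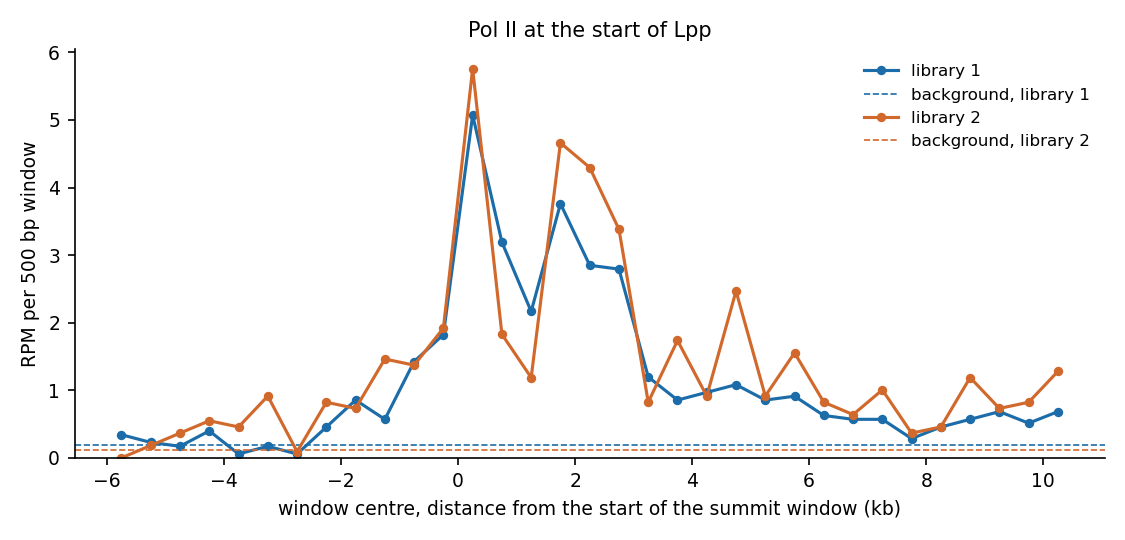
RPM per 500 bp window against the distance of the window centre from the start of the summit window, in kb, for both libraries, with each background dashed. The first peak reached 5.07 and 5.76 RPM, a dip followed, and a second hump began 1.5 kb downstream.

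The 2.5 kb around the start summit stood above the body in both libraries. Background was subtracted from start and body. The 2.5 kb around the summit had 5.08 RPM per kb in library 1 (interval 4.41 to 5.82) and 4.59 in library 2 (3.8 to 5.49). This start zone, from 24307001 to 24309500, includes windows before the summit and the dip after it. It leaves out the second hump, so the ratio below holds for this zone only. The body, from 5 kb downstream of the summit to the end of the domain, had 1.12 and 2.29 RPM per kb. The ratio of start to body was 4.54 in library 1 (interval 3.94 to 5.20, from the start count alone) and 2.0 in library 2 (1.66 to 2.40), 3.27 ± 1.80 on average (SD, n = 2). In RPM, the intervals of the start level overlap between the libraries, while the body level of library 2 was the higher. That difference depends on the scaling. Over the 1159 windows of the stretch called in either library, the median log2 ratio of library 1 to library 2 was -0.775 scaled by all reads. Scaled to reads in windows called in both libraries, it was -0.0594. With 2 libraries of 1 group, no test over samples was run for this or any other level along the gene.

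Along the body, Pol II was raised from 50 to 150 kb downstream and close to level after that, with no steady decline. In the 12 full steps downstream of the summit, the background-subtracted level of library 1 was 1.33, 1.57 and 1.44 RPM per kb in the first 3 and lay between 0.995 and 1.14 in the other 9. In library 2 it was 2.14, 3.01 and 3.03 in the first 3 and lay between 2.03 and 2.45 in the other 9. The highest step was thus not the one with the start peak, but step 2 in library 1 and step 3 in library 2. In library 2 the step with the start peak lay within the range of the later 9. From the lowest to the highest step the level differed 1.58-fold in library 1 and 1.5-fold in library 2.

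The 9 later steps, which span 450 kb, averaged 1.05 ± 0.05 RPM per kb in library 1 and 2.18 ± 0.12 in library 2 (SD over 9 steps). The last of them, from 550 to 600 kb, had 1.0 RPM per kb in library 1 (interval 0.922 to 1.08) and 2.27 in library 2 (2.14 to 2.41). The step from 150 to 200 kb had 1.11 (1.03 to 1.20) and 2.21 (2.08 to 2.35). Those intervals overlap in both libraries. The first 4 steps over the last 4 gave a ratio of 1.33 in library 1 and 1.21 in library 2, 1.27 ± 0.08 (SD, n = 2). With the median window of each step in place of the mean the ratio averaged 1.15.

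**Figure D3:**
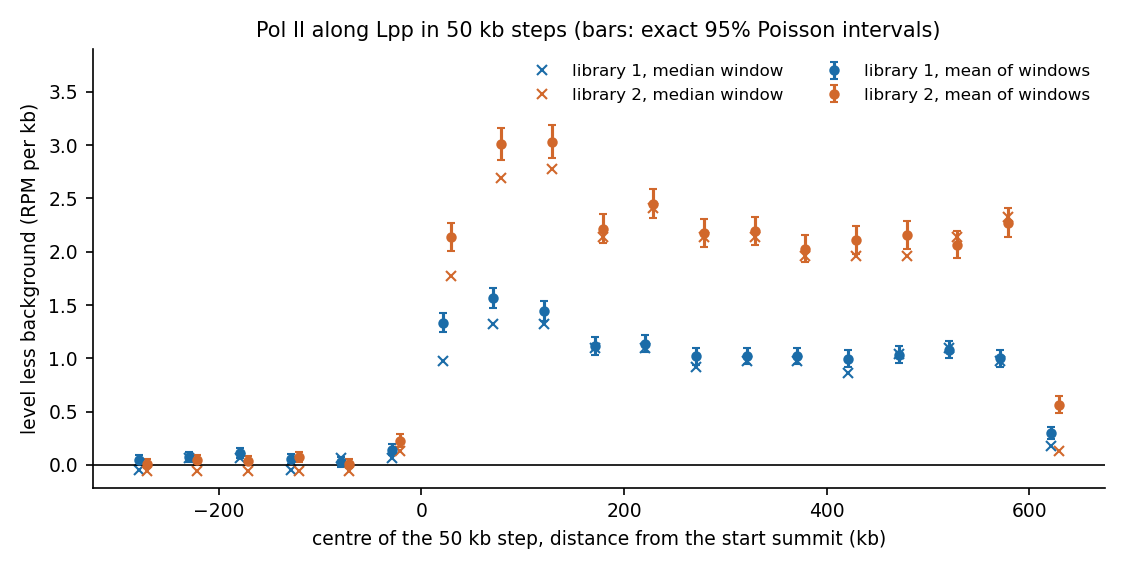
Level less background in RPM per kb for each full 50 kb step, against the distance of its centre from the start summit in kb. Points are means over windows with exact 95% Poisson intervals and crosses are medians. Steps 2 and 3 are the highest by the mean, and steps 4 to 12 lie between 0.995 and 1.14 RPM per kb in library 1 and between 2.03 and 2.45 in library 2.

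Within the first 150 kb a lower zone preceded a higher one. These zones were set after the profile was seen, so their contrast is a description only. From 5 to 52 kb downstream, the level was 0.987 RPM per kb in library 1 (interval 0.908 to 1.07) and 1.78 in library 2 (1.66 to 1.91). From 60 to 150 kb it was 1.43 (1.37 to 1.5) and 2.94 (2.83 to 3.06). The later zone was the higher in both libraries, 1.45-fold and 1.65-fold, 1.55 ± 0.14 on average (SD, n = 2). From 150 to 592 kb the level was 1.04 and 2.17 RPM per kb. The zone after the start was therefore 0.949 and 0.820 of the later body, and the zone from 60 to 150 kb was 1.38 and 1.35 times it. In median windows, which single peaks move little, the zone from 5 to 52 kb had 0.865 and 1.59 RPM per kb, that from 60 to 150 kb 1.32 and 2.69, and the later body 0.979 and 2.14. In 10 kb steps, without background subtraction, the lowest of the first 150 kb lay 12 to 22 kb downstream, at 0.917 RPM per kb in library 1 and 1.61 in library 2. The next 3 steps had 1.45, 1.70 and 1.58 RPM per kb in library 1 and 2.29, 2.39 and 1.91 in library 2. The highest step of the higher zone lay 102 to 112 kb downstream, at 2.32 and 4.70 RPM per kb.

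A single internal peak lay between these zones. In library 1 a rise across it depended on the stretches compared. The 10 kb steps that begin 32 and 42 kb downstream had 1.70 and 1.58 RPM per kb in library 1. Those that begin at 62 and 72 kb had 1.62 and 1.65. In library 2 the same steps had 2.39 and 1.91 RPM per kb before the peak and 2.84 and 2.87 after it. The closer flanks given below, 10 kb before and 10 kb after, had 1.23 and 1.86 RPM per kb in library 1. To find such peaks, each window called in both libraries was tested against the mean of the windows 1 to 10 kb away on both sides, by the same kind of test, adjusted over all 124740 such windows of the genome at 0.01, and had to exceed that mean 3-fold in both libraries. In the genome 18% of those windows passed. In the Lpp domain 6 of 710 passed, 0.845%. Of these, 1 was the summit window, 3 formed the second hump of the start, the last of which lies 2.5 kb downstream, and 2 formed the internal peak.

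The internal peak ran from 24363501 to 24364500, 55.5 kb downstream of the summit. Its 2 windows held 56 and 65 reads in library 1 and 52 and 42 in library 2. The higher window by mean RPM had 3.19 RPM in library 1, 3.85 times its surroundings (adjusted p = 1.17e-15, exact Poisson test), and 4.75 RPM in library 2, 3.77 times its surroundings (adjusted p = 3.19e-14, exact Poisson test). Neighbouring windows were also high, so that the hump from 54 to 58 kb had 3.76 RPM per kb less background in library 1 and 6.12 in library 2. The 2.5 kb around the summit, which leave out the second hump of the start, had 5.08 in library 1 and 4.59 in library 2. These stretches differ in length and in how they were placed, so they are not ranked. Both windows of the peak lay below the summit window, which had 5.07 RPM in library 1 and 5.76 RPM in library 2. In the 10 kb before the peak the density was 1.23 RPM per kb in library 1 and 1.75 in library 2, and in the 10 kb after it 1.86 and 3.12.

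**Figure D4:**
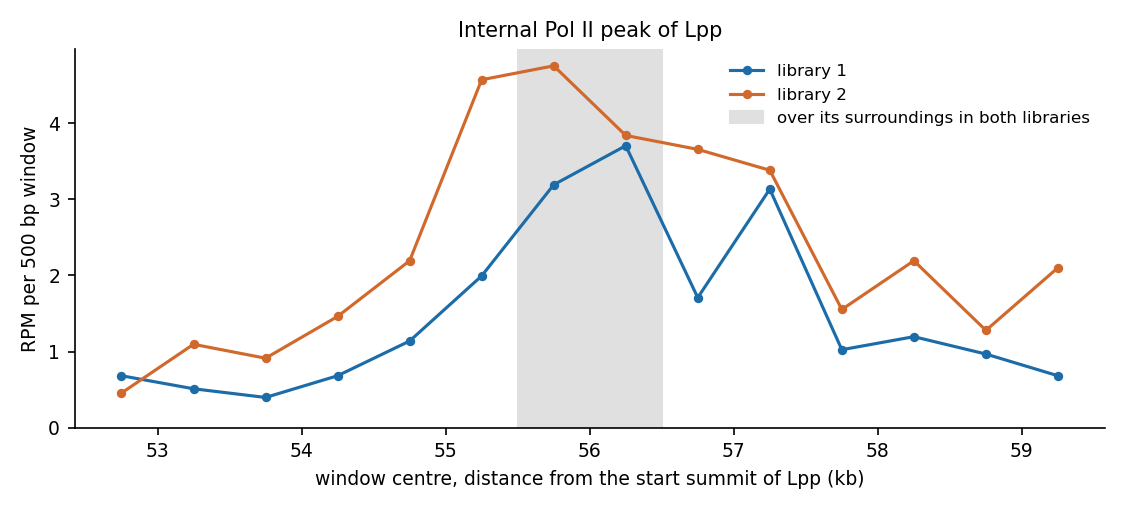
RPM per 500 bp window against distance from the start summit in kb around the internal peak, with the 2 windows that passed the test in both libraries shaded. Unshaded windows within 1 kb reach 4.57 RPM in library 2 and 3.13 RPM in library 1, so the hump is wider than the shaded part.

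Other features of the body were weaker. One window, from 24333501 to 24334000, passed in library 2 only, with 35 reads at 3.08 times its surroundings (adjusted p = 8.06e-08, exact Poisson test), against 17 reads at 1.61 times in library 1 (adjusted p = 0.0788, exact Poisson test). At 2-fold over surroundings, which 26.7% of the tested windows of the genome passed, 3 more places in the body passed in both libraries. They lay 42.5 kb, 102 kb and 340.5 kb downstream. At 42.5 kb the top window held 36 reads in library 1 and 26 in library 2. At 102 kb, 2 windows passed and the higher by mean RPM held 38 and 52 reads, 2.06 and 2.54 times the surroundings. At 340.5 kb the window held 28 and 37 reads, 2.08 and 2.72 times the surroundings.

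The place near 102 kb was broad. The 5 kb step centred 104.5 kb downstream had 2.95 RPM per kb in library 1, where the step at the start had 3.87. In library 2 it had 6.09 RPM per kb, the highest step of this fixed 5 kb grid in the whole 1 Mb, and the step at the start had 3.97. The grid split the second hump of the start, so the step at the start holds only part of that hump. The next step, centred 4.5 kb downstream, had 2.54 RPM per kb in library 1 and 3.51 in library 2. From 60 kb onward, none of the 643 windows called in both libraries passed at 3-fold in either library, against 22.3% of such windows of the genome in library 1 and 24.1% in library 2.

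Coverage of the body was close to continuous. The longest stretch of the domain with no window called in both libraries was 5.5 kb, from 24321001 to 24326500, which still had 0.829 RPM per kb in library 1 and 1.46 in library 2, with 7 of its 11 windows called in library 2. The next stretches were 4.5 kb from 24716501 and 4 kb from 24712001. In the first of these, 4 of 9 windows held no read in either library. Across the domain 16 of 1218 windows held no read. In library 2 alone the longest uncalled stretch was 2.5 kb, and a single run of calls reached 93.5 kb. In library 1 these values were 4.5 kb and 43.5 kb.

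Fewer windows of the body were called in library 1 than in library 2. From 150 kb downstream to the end, the 900 tested windows averaged 12.6 reads in library 1, near the 12 needed for a call, and 13.2 in library 2, far above the 7 needed. Counts scattered more than Poisson noise would give, with a variance of 1.67 times the mean in library 1 and 2.14 times in library 2. The exact Poisson tests do not allow for such excess, so their p values can be too small. Averaged in 45 steps of 10 kb, density varied with a coefficient of variation of 10.8% and 10.4%. Between the libraries, those 45 steps had a correlation of 0.64 (Pearson) and 0.68 (Spearman). Over the 900 single windows it was 0.38 and 0.37. Steps and windows share mappability and are not replicates, so no p is given. Of the 900 windows 57.8% reached the call in library 1 and 91.0% in library 2.

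The end of Lpp had a raised plateau and then a drop. The 10 kb from 24900001 to 24910000, 592 to 602 kb downstream, had 1.80 RPM per kb in library 1 (interval 1.61 to 2.01) and 3.11 in library 2 (2.79 to 3.46). The 20 kb before had 1.24 (1.13 to 1.37) and 2.32 (2.12 to 2.53). Less background, the last 10 kb were 1.65-fold and 1.38-fold higher than those 20 kb, 1.51 ± 0.19 (SD, n = 2), and 1.36-fold and 1.32-fold higher than the body from 150 to 592 kb. Without that subtraction, the 10 kb step from 24480001 to 24490000 had 1.85 RPM per kb in library 1 and 2.64 in library 2. A level as high as that of the end was thus not particular to the end in library 1. In 2 kb steps the last 5 before 24910000 had 1.54 to 2.08 RPM per kb in library 1 and 2.56 to 3.52 in library 2. These bounds were also chosen after the profile was seen.

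Beyond 24910000 the density was lower within 2 kb. The first 10 kb after it had 0.966 RPM per kb in library 1 and 1.28 in library 2, 0.536 and 0.412 of the last 10 kb. The second 10 kb had 0.666 and 0.529 RPM per kb, 1.71-fold and 2.24-fold over background, and the third had 0.473 and 0.402, 1.22-fold and 1.70-fold. In both libraries 24910000 was the end of the last 10 kb step with at least 50% of its tested windows called, 602 kb from the start summit. In library 2, calls went on with gaps to 24920500.

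**Figure D5:**
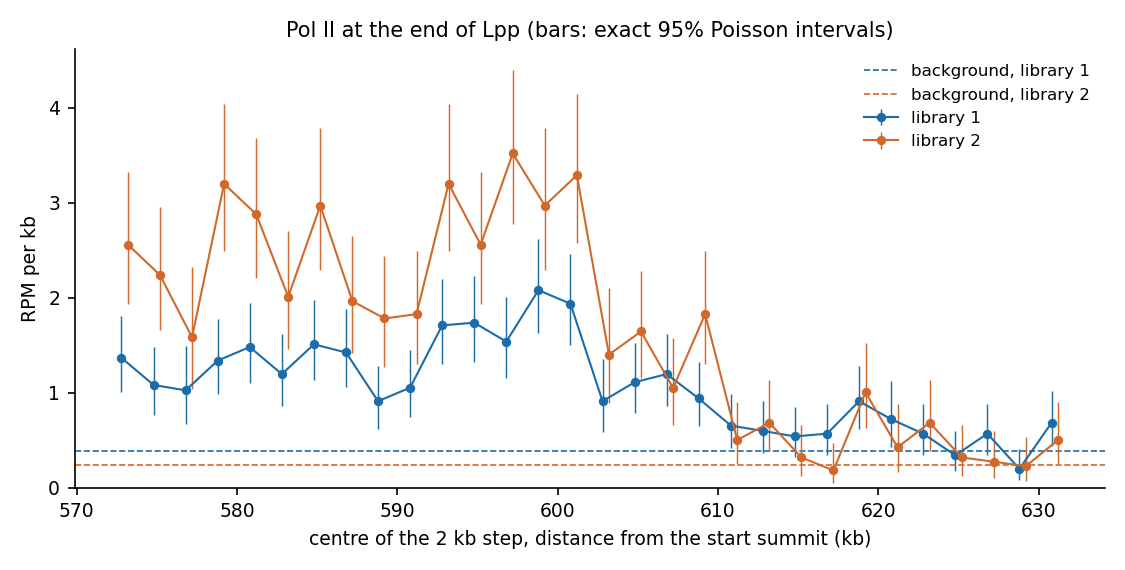
RPM per kb in 2 kb steps with exact 95% Poisson intervals, against distance from the start summit in kb, with each background dashed. Density is raised from 592 to 602 kb, lower in the next 2 kb in both libraries, and from 622 to 632 kb between 0.513 and 1.76 times background in library 1 and between 0.968 and 2.90 times in library 2.

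Past the end, 2 separate regions called in both libraries lay before the end of the 1 Mb. The larger ran from 24973501 to 24976000, 58.5 kb past the domain, with 142 reads in library 1 and 110 in library 2. That is 8.09 and 10.1 RPM, 9.07 ± 1.39 on average (SD, n = 2), and 8.32-fold and 17.0-fold over background per window. The smaller ran from 24957001 to 24958000 with 36 and 39 reads, 2.81 ± 1.07 RPM. Each held windows over 3 times their surroundings in both libraries, 3 in the larger and 2 in the smaller. Before the domain the only region called in both was 1 window at 24162501, with 14 and 10 reads. The last 20 kb of the 1 Mb had no called window in either library and lay 1.21-fold and 1.12-fold over background.

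Window by window, few differences between the libraries passed a test. Their start-to-body ratios and the order of the start humps differed as given above, without a test. With the libraries scaled to their totals over windows called in both, 1 of 1159 windows of the stretch called in either library differed at 0.01 by an exact binomial test, two-sided and Benjamini-Hochberg adjusted over 410963 windows of the genome. In the genome 0.55% passed as higher in library 1 and 0.567% as higher in library 2. The window, from 24308501 to 24309000, lies just after the start summit, on the downstream side of the first hump, and held 56 reads in library 1 and 20 in library 2, a scaled ratio of 2.87 (95% exact interval 1.69 to 5.04, adjusted p = 0.00375, exact test). The test compares these 2 libraries only, and a window short of the threshold can still differ. Scaled by all reads, 31 windows passed, all higher in library 2, against 6.63% of the windows of the genome.

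Among long Pol II domains, that of Lpp was the longest found by the same chaining. There were 22 chains of at least 200 kb in the genome. Lpp reached 609 kb under these calls, whereas under the alternative calls given above its chain was shorter and the other chains were not recomputed. The next, on chromosomes 14, 5 and 15, reached 346.5, 330 and 328.5 kb. A chain may hold several genes, and no gene is named for the others. In density Lpp was not extreme, with 1.52 RPM per kb in library 1 and 2.52 in library 2 over all its windows, against medians of 1.24 and 2.62 over the other 21. Its share of called windows over 3 times their surroundings, 0.845%, was near their median of 0.787%. These comparisons use the same calls that chose Lpp and are given without a test.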

How the data were processed

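Pol II ChIP-seq of 2 libraries was used. Per the labels' protocols, chromatin of about 500 bp was precipitated, amplified by 18 PCR cycles and selected for sheared fragments of 50 to 200 nt. Per the file headers, the authors aligned reads with Bowtie to mm8 (options -e 70, -k 2, -m 2, -n 2, -l 36, --best). The Bowtie version is not stated there. What the authors deposited are signed alignment offsets, without counts, scaling, peaks or removal of repeated starts.

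Offsets were read as 0-based left-most bases of 36-base reads. Nuclear reads (autosomes, X and Y) with 1 placement were collapsed to 1 per start and strand, shifted 60 bp downstream and counted in 500 bp windows, leaving 17548967 and 10941174 reads. Background was the mean count per window once called windows had been taken out in 3 rounds, 3.41 and 1.29 reads per window. Densities per kb use windows with a read in either library, except the 5 kb profile and the chain densities, which use all windows. The start summit was the highest window by mean RPM in the first 50 kb of the domain. Named peaks were the start, internal peaks, regions outside the domain, the longest uncalled stretches and windows that differed between libraries. The windows listed at 2-fold, the zones and the 200 kb limit for chains were chosen after the data were seen. The stretch and all lists were chosen with earlier results of these data known. Amplified reads carry no molecular identifiers and are not independent molecules. Software was SciPy 1.17.1 and NumPy 2.4.6 under Python 3.11.15, with figures from matplotlib 3.10.9. Alternatives covered repeated starts, shift, background, threshold, window size, gaps, scaling, reads placed at 2 sites and each library alone.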

Additional observations from a re-analysis of the deposited data

Results flagged for a closer look

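Reads placed at 2 sites entered no level given above, and some lay in the 1 Mb around Lpp. There were 275 such alignments in library 1 and 248 in library 2, with repeated starts collapsed. Within the domain they numbered 188 and 193, 0.0176 and 0.0290 RPM per kb, against 0.0127 and 0.0129 RPM per kb in the rest of the 1 Mb. The most in 1 window was 13 in library 1, from 24718501 to 24719000, which lies in the stretch with unread windows described above. In library 2 it was 18, from 24408001 to 24408500, close to the broad place near 102 kb.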

How the results depend on the processing

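Of 79 alternative values, 61 stayed within the spread between the libraries, or within 1.5 times for counts, and 18 did not. For the start-to-body ratio, the gradient and the 2 zone ratios, the main value is the mean of the libraries. Each library alone could therefore only fall within the spread there, and those entries carry no information. The end of the signal kept its place, 602 kb from the start, under each alternative tried on it. That end is read on a fixed 10 kb grid, so a smaller shift need not show. The local background and windows of 250 bp and 1000 bp were not tried on it. The count of windows called in both, 718, rested on the call: it was 243 with a negative binomial background, 307 at a threshold of 0.0001 and 310 in 250 bp windows, and with each library alone 750 to 1127. A local background of 50 kb on each side left 19 windows and a longest chain of 3.5 kb. Over most of the domain, that background is taken from windows of the domain itself. Except for each library alone, shares over the genome under these calls are not given here, so nothing about Lpp is read from the counts. Counts in 250 bp or 1000 bp windows have another unit than the 718 windows of 500 bp and are not like for like. That holds also for the 567 windows of 1000 bp, an entry among the 61. The extent was 267.5 kb with the negative binomial background, 444 kb at 0.0001, 265 kb in 250 bp windows, 622 kb in 1000 bp windows and 588.5 kb with gaps of up to 5 kb joined, and 609 to 623 kb with each library alone. The cause of these differences was not tested. The other alternatives left it at 609 to 612 kb. The start-to-body ratio ranged from 2.0 to 4.54, the values of the single libraries. The gradient moved beyond the spread only with medians over windows, to 1.15, and was 1.21 to 1.33 in single libraries. Internal peaks from 2.5 kb downstream, counted with the last window of the second start hump as 1, numbered 2, and 5 at 2-fold over surroundings, and 2 to 3 in single libraries. Windows that differed between the libraries numbered 2 with all reads kept, 3 with trimmed-mean scaling and 31 scaled by all reads. With trimmed-mean scaling the 3 of 1159 windows were all higher in library 1. In the genome 6383 of 410963 were then higher in library 1 and 865 in library 2. Scaled by all reads, 6.63% of the windows of the genome were higher in library 2. The share over the genome with all reads kept is not given here. The ratio of the zone from 60 to 150 kb to that from 5 to 52 kb was 1.45 to 1.65 in single libraries. That of the last 10 kb to the 20 kb before was 1.38 to 1.65 and, with medians, 1.73. The alternatives for these last 2 ratios were chosen after seeing the data. No paired analysis was possible because there is only 1 group.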
